A study of Mus musculus with 12 samples.

Results

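The heat shock chaperones described here are 10 genes of the cytosol and the mitochondrial matrix: Hsp90aa1, Hsp90ab1, Hspa8, Hspa1a, Hspa1b, Hsph1, Dnaja1, Dnajb1, Hspd1 and Hspe1. They were found by gene symbol in a table of 55487 features, and all 10 were in it. RNA was sequenced from mouse natural killer (NK) cells, lymphocytes that kill target cells and secrete interferon gamma. All samples came from strain B6.129S4-Ifngtm3.1Lky/J with genotype mut/mut, in which the interferon gamma gene carries a yellow fluorescent protein (YFP) reporter, and all carry the term HD IL-15 in their titles. Unstimulated samples had no antibody, and the other samples were stimulated with anti-NK1.1, an antibody to an activating receptor of NK cells, for 6 h and divided by the reporter into YFP- and YFP+ samples. There were 3 groups of 4 samples, with the replicate labels f2, m2, m3 and m4 in each group. The labels give no age of the mice and do not say whether samples of 1 label came from 1 mouse, so p-values measure the spread between these samples. Reporter-negative and reporter-positive cells were set apart by the reporter itself, and the unstimulated samples were not divided by it.

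Chaperones bind unfolded or partly folded proteins and help them reach or keep their native shape. HSP70 proteins take up short stretches of a chain, J-domain proteins bring them substrates and start ATP hydrolysis, and exchange factors such as HSP110 remove the ADP so that the substrate is released. HSP90 acts later, on near-native proteins such as kinases and receptors, and the HSP60 and HSP10 ring encloses proteins inside mitochondria. Many of these genes have a constitutive and an inducible form, and the transcription factor HSF1 binds repeats of the bases GAA in their promoters during heat shock.

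The promoter stretches below are shown because the heat shock element is the sequence feature best known in this gene family. RefSeq windows on GRCm38.p6, from 250 bases before to 50 after a start site, were matched for 7 of the 10 genes, as 12 windows; Hsp90aa1, Hsp90ab1 and Hspa8 were not matched. Each stretch has 30 bases, written 5′ to 3′ on the gene's strand. Capitals mark the 3-unit heat shock element in the first 3 lines, meaning 3 alternating units GAA and TTC set 2 bases apart, with overlapping matches joined. In the last 3 lines they mark its 2-unit part GAANNTTC. Both strands were searched.
Hspe1, chr1:55088053-55088082, plus strand, 95 to 66 bases before the start site: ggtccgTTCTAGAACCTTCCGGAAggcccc
Hspd1, chr1:55088053-55088082, minus strand, 150 to 121 bases before the start site: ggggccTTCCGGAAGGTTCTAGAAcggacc
Hsph1, chr5:149636282-149636311, minus strand, 4 to 33 bases after the start site: aatgctgcagaTTCTGGAAAGTTCtcctca
Hspa1a, chr17:34972241-34972270, minus strand, 114 to 85 bases before the start site: gaaactgctgGAAGATTCctggccccaagg
Hspa1b, chr17:34959323-34959352, minus strand, 114 to 85 bases before the start site: gaaactgctgGAAGATTCctggccccaagg
Dnaja1, chr4:40722334-40722363, plus strand, 134 to 105 bases before the start site: aaagcctctaGAAAATTCtacgaggctcgg

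Hspe1 and Hspd1, which encode HSP10 and HSP60, are read away from each other, and their first 2 lines are the same bases on opposite strands. These bases also lie in annotated exons of GENCODE M21, as do those of Hsph1 and Dnaja1. A 3-unit element was present for 3 of the 7 genes, of which Hspe1 and Hspd1 share theirs, and for 0.662% of all 27025 genes with windows. By window this was 4 of 12, against 0.603% of all 32851 promoter windows of the same length. With the upstream 250 bases alone, it was present for 2 of the 7 genes and 0.514% of all genes (2 of 12 windows against 0.466%). The part GAANNTTC, which lies within every 3-unit element, was present for 6 of the 7 genes and 9.04% of all genes (7 of 12 windows against 7.86%). TTCNNGAA also lies within every 3-unit element. It was present for the same 3 genes as that element and for 9.6% of all genes (4 of 12 windows against 8.52%). CCAAT, the letters bound by NF-Y, was present on either strand for 6 genes and 41.1% of all genes (8 of 12 windows against 37.4%). The windows of Hspa1a and Hspa1b differed at 4 of 300 bases, and the printed stretches of these 2 genes were identical. A match is a description of the letters in these windows and says nothing of binding in NK cells.

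Library totals ran from 32.1 to 54.2 M (mega) reads. Levels are given in CPM, the reads of a gene scaled to a common library total, and 3 reads correspond to 0.0553 to 0.0933 CPM. RNA of NK cells was abundant in every sample, with 8954 to 16580.4 CPM summed over 10 NK markers. The B cell list (5 genes, at most 4.19 CPM in sum), the myeloid list (6 genes, at most 2.97 CPM) and the erythroid list (3 genes, at most 0.326 CPM) were near 0. The T cell list (8 genes) summed to 379 to 411 CPM in unstimulated, 523 to 597 CPM in YFP- and 548 to 680 CPM in YFP+ samples, most of it Trbc1 (297 to 576 CPM). Of its defining genes, Cd3e was at most 1.49 CPM, Cd5 at most 1.12 CPM and Cd4 at most 0.184 CPM. Cd3g (11.7 to 79.4 CPM) and Cd3d (7.25 to 25.9 CPM) were present in all samples. Trac held 6.83 to 8.47 CPM in unstimulated, 27.6 to 41.9 CPM in YFP- and 40.4 to 54.5 CPM in YFP+ samples. Cd6 held 0.301 to 0.973, 6.80 to 18.7 and 8.20 to 36.1 CPM in these groups. The part of these T cell genes in the results below was not tested. Reads on ribosomal RNA-like features took 27.4 to 35.3% of unstimulated, 15.9 to 30.3% of YFP- and 13.7 to 29.8% of YFP+ libraries. The highest share of each group belonged to m4 of the unstimulated (35.3%), m3 of the YFP- (30.3%) and m3 of the YFP+ samples (29.8%). These 3 libraries also held low values of several chaperones, given below beside the other samples. Of them, m3 of the YFP+ samples also held the highest Hspe1 (331 CPM) and Hsph1 (39.5 CPM) values of all 12 samples. The part of the ribosomal share in these values was not tested. In bulk RNA, fewer cells with a transcript and less of it per cell cannot be told apart.

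Of the 10 genes, 8 had a log2 CPM above 0 in 4 or more samples and were tested; Hspa1a and Hspa1b did not. After stimulation, 7 of the 8 were higher in YFP- than in unstimulated samples and none was lower. The exception was Dnajb1. Across all 12364 genes tested by limma with Benjamini-Hochberg adjustment, 30.2% were higher, 20.9% lower and 51.1% called in either direction at an adjusted p under 0.05. The median log2 difference was 0.93 over the 8 genes and 0.14 over all genes tested. In YFP+ against unstimulated samples, 6 of the 8 were higher and none was lower, against 27.5% higher, 33.3% lower and 60.8% called of all genes, with medians of 0.95 and -0.025. Both comparisons share the unstimulated samples. Between YFP+ and YFP- samples, only Hspe1 was called, as higher in YFP+, where 3.28% of all genes were higher, 18.5% lower and 21.8% called. The median difference was 0.13 over the 8 genes and -0.19 over all genes. Every sample of the first group lay above every sample of the second for 7, 6 and 1 of the 8 genes in the 3 comparisons, against 30.9%, 24.0% and 4.31% of all genes.

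**Figure D1:**
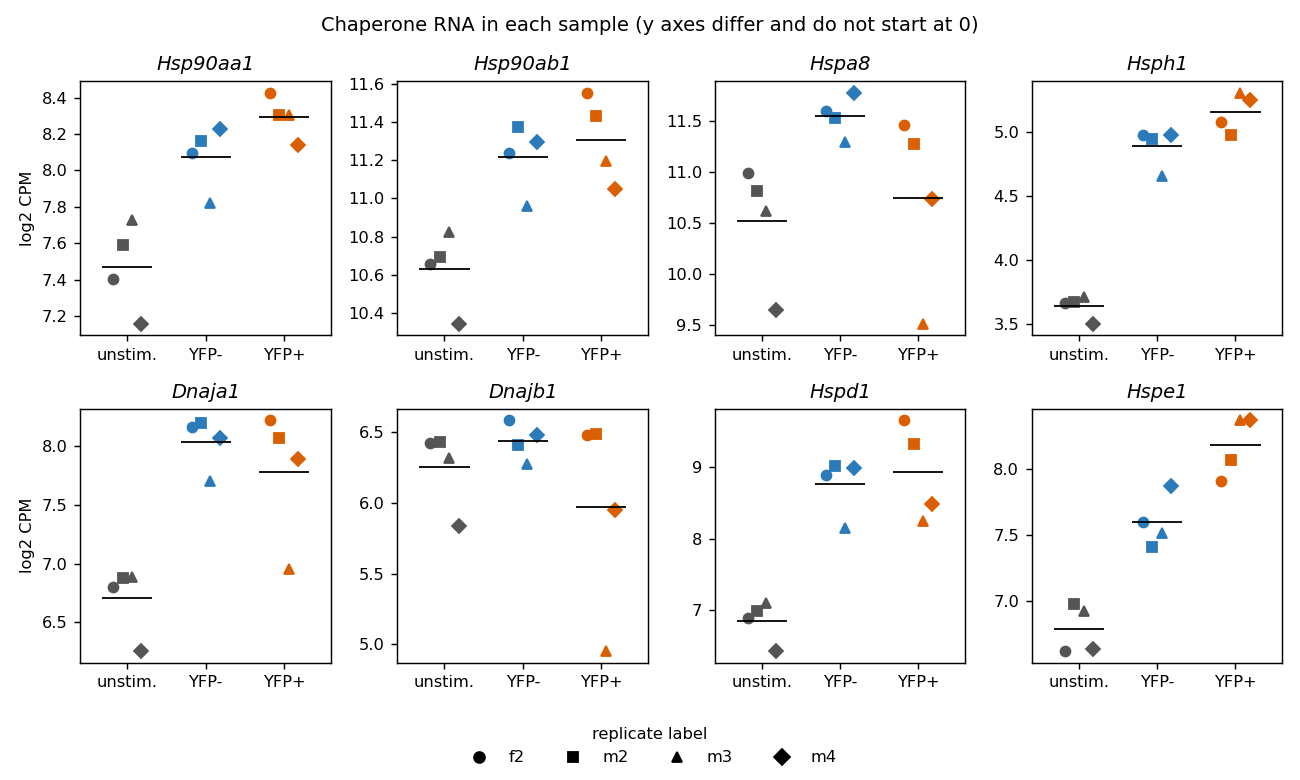
Log2 CPM of the 8 genes that passed the filter (y axis, its range differing between panels) in the 3 groups of 4 samples (x axis), where each point is a sample, its shape the replicate label and the bar the group mean. The unstimulated points of Hspd1, Hspe1 and Hsph1 lie below all 8 stimulated points, whereas Hspa8 spans 9.51 to 11.47 within the YFP+ group.

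Scaling between samples bore most on YFP+ against YFP-. As deposited, 405 of the called genes were higher and 2286 lower in YFP+ than in YFP-. With every sample centred on its median, the all-gene median moved from -0.19 to 0.074 and the split to 1505 higher and 1491 lower. In YFP- against unstimulated samples the split was 3735 higher and 2586 lower, or 3072 and 3444 when totals were taken without the ribosomal RNA-like features, which moved the median from 0.14 to -0.046. Under centring, 4 of the 8 chaperones were higher in YFP+ than in YFP- and none was lower. With the ribosomal RNA-like features left out, 7, 6 and 1 of them were higher in the 3 comparisons, as in the deposited values.

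HSP90 has an inducible cytosolic form, encoded by Hsp90aa1 (ENSMUSG00000021270, chr12:110690605-110702728, minus strand), and a constitutive form, encoded by Hsp90ab1 (ENSMUSG00000023944, chr17:45567775-45573271, minus strand). Positions of genes are those of GENCODE M21 on GRCm38, and values per sample follow in the order f2, m2, m3 and m4. Hsp90aa1 stood at 169, 193, 212 and 143 CPM in unstimulated samples, at 274, 286, 226 and 299 CPM in YFP- and at 345, 317, 316 and 282 CPM in YFP+ samples. No unstimulated value reached a stimulated one, and the YFP- and YFP+ values overlapped. The log2 difference from unstimulated samples was 0.61 (SE 0.14, 1.52-fold, limma adjusted p = 0.0022) in YFP- and 0.83 (SE 0.14, 1.77-fold, limma adjusted p = 0.00013) in YFP+.

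Hsp90ab1 stood at 1613, 1654, 1811 and 1299.8 CPM in unstimulated samples. It reached 2413, 2654, 1993 and 2515 CPM in YFP- and 3009.6, 2766, 2349 and 2118 CPM in YFP+ samples. Again every stimulated value lay above every unstimulated one. Log2 differences were 0.59 (SE 0.14, limma adjusted p = 0.0029) and 0.68 (SE 0.14, limma adjusted p = 0.00071) for YFP- and YFP+, or 1.504-fold and 1.60-fold. Between YFP+ and YFP- the difference was 0.22 for Hsp90aa1 (95% interval -0.073 to 0.51) and 0.092 for Hsp90ab1 (-0.20 to 0.39), neither past the test. With centring both were called higher in YFP+, by 0.48 and 0.35 (limma adjusted p = 0.009 and 0.029). With TMM scaling Hsp90aa1 alone of the pair was called (0.37, limma adjusted p = 0.046).

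The proportion of the 2 HSP90 genes was close in the 3 groups. Hsp90aa1 gave 10.1 ± 0.47% (SD, n = 4) of their summed CPM in unstimulated samples, 10.2 ± 0.37% in YFP- samples and 11.0 ± 0.88% in YFP+ samples. Within the YFP+ group, f2 and m2 were both at 10.3%, and m3 and m4 were at 11.9% and 11.8%, the highest of all 12 samples. Of the 150-base stretches of the annotated Hsp90aa1 exons, 28.5% also occur in 3 other annotated genes, so its reads could be divided among them. No such stretch of Hsp90ab1 was found in another gene.

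HSP70 is represented by the constitutive Hspa8 and the stress-inducible pair Hspa1a and Hspa1b. Hspa8 (ENSMUSG00000015656, chr9:40800984-40810087, plus strand), which encodes HSC70, stood at 2041, 1803, 1569.7 and 798 CPM in unstimulated samples. YFP- samples held 3107, 2973, 2516 and 3525 CPM. YFP+ samples held 2828, 2480.1, 729 and 1702 CPM. Every YFP- sample was above every unstimulated sample. The YFP+ samples ranged from m3, below the lowest unstimulated value, to f2, which lay within the YFP- range.

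Hspa8 rose by 1.04 in log2 in YFP- against unstimulated samples (SE 0.37, 2.05-fold, limma adjusted p = 0.031). This call was lost without m4 of the unstimulated samples (0.75, limma adjusted p = 0.10). The difference was 0.23 (95% interval -0.57 to 1.03) in YFP+ against unstimulated and -0.81 (-1.61 to -0.011) in YFP+ against YFP-, with limma adjusted p of 0.62 and 0.14. Hspa8 was lower in YFP+ than in YFP- at all 4 labels. Without m3 of the YFP+ samples, the latter difference was -0.40 and the former 0.64 (limma adjusted p = 0.35 and 0.051). Reads of Hspa8 are uncertain by 23.0% of its 150-base stretches, which occur in 5 other annotated genes; of these, Gm15459 held most reads (35.5 to 125 CPM).

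Hspa1a (ENSMUSG00000091971, chr17:34969190-34972156, minus strand) and Hspa1b (ENSMUSG00000090877, chr17:34956436-34959238, minus strand) are single-exon genes that lie 9.95 kb apart and encode nearly the same inducible HSP70. Hspa1a had 8, 8, 1 and 7 reads in the unstimulated libraries, 4, 13, 13 and 24 in YFP- and 6, 0, 0 and 2 in YFP+. Hspa1b had 10, 2, 15 and 3 reads in unstimulated, 10, 10, 15 and 22 in YFP- and 5, 4, 4 and 8 in YFP+ libraries. Both were thus near the limit of detection in all groups, and 0 reads in m2 and m3 of the YFP+ samples allow up to 0.0553 and 0.0829 CPM. Since 38.1% of the 150-base stretches of Hspa1a also occur in Hspa1b, the 2 genes were summed.

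The summed level was 0.361 ± 0.094 CPM (SD, n = 4) in unstimulated, 0.591 ± 0.267 CPM in YFP- and 0.180 ± 0.109 CPM in YFP+ samples. All 4 YFP- values (0.316 to 0.938 CPM) lay above all 4 YFP+ values (0.0737 to 0.311 CPM), but only just. The nearest were f2 of YFP- (14 reads, 0.316 CPM) and m4 of YFP+ (10 reads, 0.311 CPM), a gap of less than a read. The exact 2-sided permutation test, added after seeing the data, gave p = 0.0286 for YFP+ against YFP-, the smallest that 4 against 4 allows. After Benjamini-Hochberg adjustment over 3 tests, this permutation p was 0.0857. For unstimulated samples against YFP- and YFP+ the exact permutation p was 0.143 and 0.0857 (adjusted 0.143 and 0.129). The sum was also fitted by limma as 1 feature beside the genes tested, although it did not pass their filter. There it was lower in YFP+ than in YFP- by a log2 difference of -1.73 (SE 0.52, adjusted p = 0.029). This size depends on the prior added to so few reads. Fitted as separate genes with no filter, neither was called between YFP+ and YFP- (limma adjusted p = 0.22 for Hspa1a and 0.55 for Hspa1b). The pair made up 0.0255 ± 0.0099% of its sum with Hspa8 in unstimulated samples, 0.0195 ± 0.0080% in YFP- samples and 0.0111 ± 0.0069% in YFP+ samples. The groups overlapped in this share.

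Hsph1 (ENSMUSG00000029657, chr5:149614287-149636376, minus strand) encodes HSP105, an HSP110 protein that exchanges nucleotide on HSP70. It was at 12.6, 12.7, 13.1 and 11.3 CPM in unstimulated samples, 31.5, 30.8, 25.1 and 31.4 CPM in YFP- and 33.6, 31.4, 39.5 and 38.0 CPM in YFP+ samples. Stimulated and unstimulated values were far apart, and the highest YFP- value lay between the lowest 2 YFP+ values. Hsph1 rose by 1.25 in YFP- (SE 0.13, 2.38-fold, limma adjusted p = 4.3e-06) and by 1.51 in YFP+ (SE 0.13, 2.86-fold, limma adjusted p = 2.7e-07). It had the smallest spread among unstimulated samples of the 8 genes, with an SD of 0.09 in log2 CPM. The difference of YFP+ from YFP-, 0.26 (95% interval -0.010 to 0.54), was positive at all 4 labels and did not pass the test. It passed with centring (0.52), TMM scaling (0.42), voom weights (0.41) and quantile normalization (0.45), with limma adjusted p of 0.015, 0.019, 0.017 and 0.045.

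The J-domain genes differed from each other. Dnaja1 (ENSMUSG00000028410, chr4:40722150-40737149, plus strand), a class A J protein, stood at 111, 118, 118 and 76.4 CPM in unstimulated samples. YFP- samples held 286.8, 293, 209 and 268 CPM, and YFP+ samples 298, 269, 124 and 237 CPM. All stimulated values exceeded all unstimulated ones, with m3 of the YFP+ samples only just above the highest of them. Dnaja1 rose by 1.33 (SE 0.24, 2.51-fold, limma adjusted p = 0.00051) in YFP- and by 1.08 (SE 0.24, 2.11-fold, limma adjusted p = 0.0016) in YFP+ samples. Its difference between YFP+ and YFP- was -0.25 (95% interval -0.77 to 0.27), 0.012 with centring and 0.026 without m3 of the YFP+ samples.

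Dnajb1 (ENSMUSG00000005483, chr8:83608193-83612653, plus strand) encodes HSP40, a class B J protein that is strongly inducible by heat. It was at 86.1, 86.3, 79.6 and 57.1 CPM in unstimulated, 96.0, 85.2, 77.5 and 89.1 CPM in YFP- and 89.5, 89.7, 30.9 and 61.9 CPM in YFP+ samples. The 3 groups overlapped, and the lowest value was that of m3 of the YFP+ samples. Dnajb1 was not called in any of the comparisons. Log2 differences were 0.19 (95% interval -0.41 to 0.78) in YFP- and -0.28 (-0.88 to 0.31) in YFP+ against unstimulated samples, and -0.47 (-1.07 to 0.13) in YFP+ against YFP-. Without m3 of the YFP+ samples the last 2 were 0.055 and -0.13. The interval for YFP- includes the differences of both HSP90 genes there (0.61 and 0.59) and not that of Dnaja1 (1.33).

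HSP60 and its lid HSP10 form the folding chamber of the mitochondrial matrix, and their genes lie head to head. Hspd1 (ENSMUSG00000025980, chr1:55077835-55088243, minus strand) and Hspe1 (ENSMUSG00000073676, chr1:55088132-55091307, plus strand) overlap by 112 bases of annotation. The labels' kit is not described as keeping strand, and reads in those bases cannot be assigned to either gene without it. Hspd1 stood at 119, 127, 138 and 86.3 CPM in unstimulated, 476, 517, 285 and 510.3 CPM in YFP- and 810.1, 646, 306 and 361 CPM in YFP+ samples. Within the YFP+ group, f2 and m2 lay well above m3 and m4. Hspd1 rose by 1.91 (SE 0.29, 3.75-fold, 95% interval 2.43 to 5.80, limma adjusted p = 0.00013) in YFP- and by 2.08 (SE 0.29, 4.23-fold, 2.74 to 6.54, limma adjusted p = 3.2e-05) in YFP+ samples. These were the largest differences among the 8 genes in both comparisons. YFP+ and YFP- differed by 0.17 (-0.46 to 0.80), which was not called.

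Hspe1 stood at 98.3, 126, 121 and 99.4 CPM in unstimulated samples, at 194, 169.8, 183 and 235 CPM in YFP- and at 241, 269, 331 and 330.5 CPM in YFP+ samples. No 2 of the 3 groups overlapped, with YFP+ highest. Hspe1 rose by 0.81 (SE 0.14, 1.76-fold, limma adjusted p = 0.00041) in YFP- and by 1.39 (SE 0.14, 2.62-fold, limma adjusted p = 2e-06) in YFP+ samples. It was higher in YFP+ than in YFP- by 0.58 (SE 0.14, 1.49-fold, limma adjusted p = 0.011), at all 4 labels. The call was lost without label m2 (0.55, limma adjusted p = 0.064) or m3 (0.49, limma adjusted p = 0.072), and the difference reached 0.84 with centring.

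Although both genes rose, the ratio of Hspe1 to Hspd1 was not the same in all samples; it was not tested. In CPM it was 0.824, 0.99, 0.88 and 1.15 in unstimulated samples. YFP- samples held ratios of 0.408, 0.328, 0.644 and 0.46, all below the unstimulated ones. YFP+ samples were divided, with 0.297 and 0.416 for f2 and m2 and 1.08 and 0.917 for m3 and m4. The YFP+ values, from 0.297 to 1.08, covered those of all YFP- samples and overlapped the unstimulated ones, which reached 1.15. A ratio within a sample does not depend on the scaling between samples. In each group the highest ratio was that of the library with the highest ribosomal RNA-like share. In YFP+ libraries that share was 13.7, 16.3, 29.8 and 23.1% for f2, m2, m3 and m4. Among unstimulated samples, m2 had the lowest share (27.4%) and the ratio next to the highest. The part of the ribosomal share in the ratio was not tested.

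**Figure D2:**
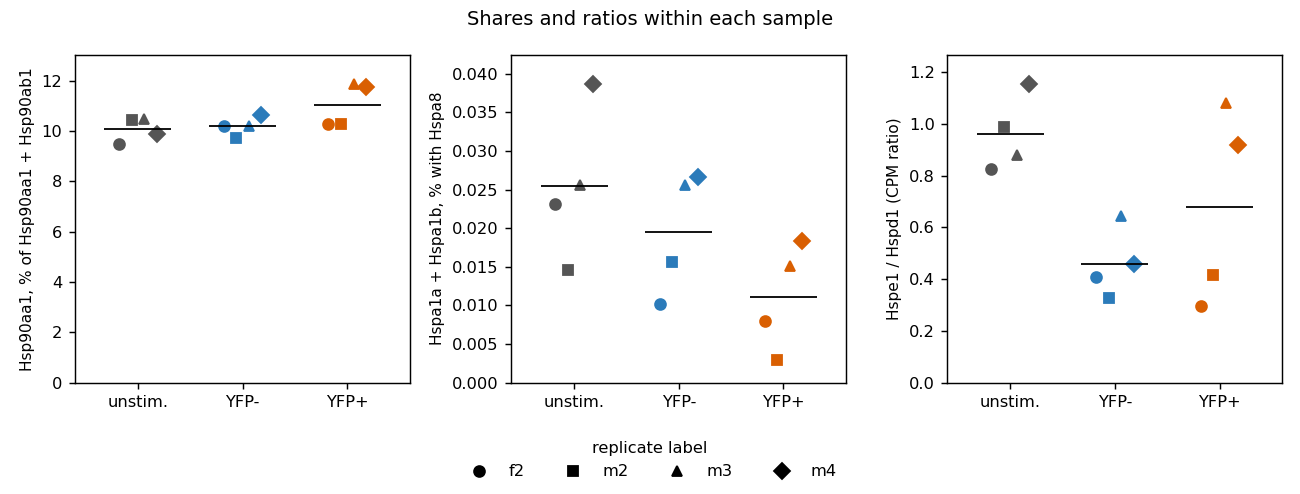
Hsp90aa1 as a percentage of both HSP90 genes, Hspa1a plus Hspa1b as a percentage of their sum with Hspa8, and the CPM ratio of Hspe1 to Hspd1 (y axes, from 0) in each sample by group (x axis), with the bar at the group mean. The first share stays between 9.50% and 11.9% in all samples, and the ratio in the right panel separates YFP+ samples f2 and m2 (0.297 and 0.416) from m3 and m4 (1.08 and 0.917).

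**Figure D3:**
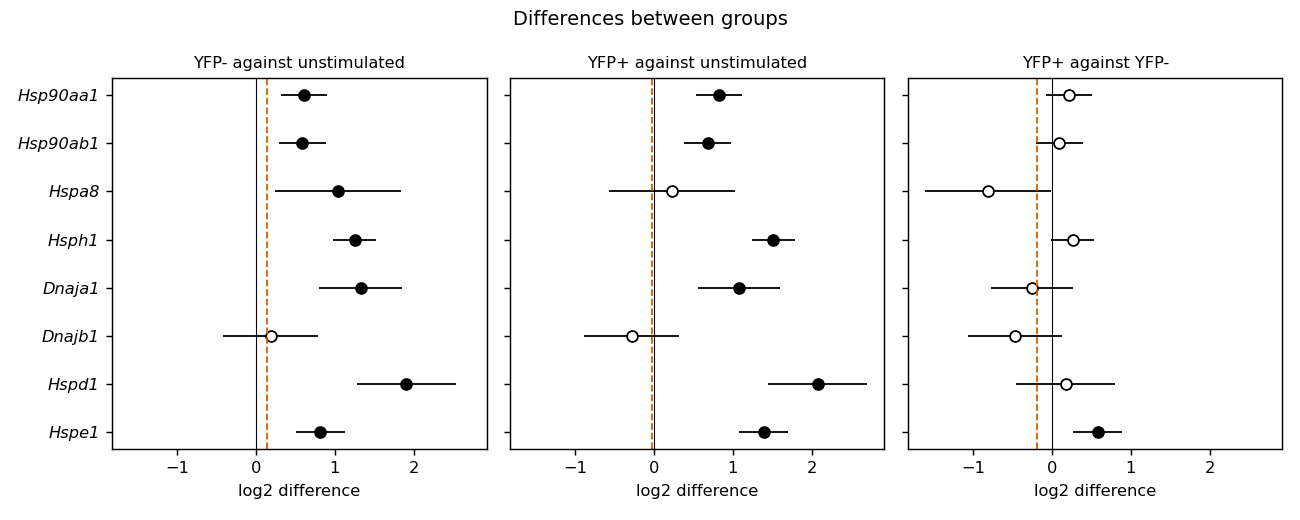
Log2 differences of the 8 genes in the 3 comparisons (x axis) with 95% intervals from limma; filled points have an adjusted p under 0.05, and the dashed line is the median of all 12364 genes tested. Hspd1 shows the largest difference from unstimulated samples in both (1.91 and 2.08), and Hspe1 holds the only filled point between YFP+ and YFP- (0.58).

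Levels of different genes can be compared only per length, here as CPM divided by the kilobases of annotated exon. Hsp90ab1 led in every group, with 532 ± 71.4 CPM per kb (SD, n = 4) in unstimulated samples, 798 ± 95.05 in YFP- samples and 854 ± 134 in YFP+ samples. Hspa8 followed with 361 ± 125, 705 ± 96.6 and 449.8 ± 217 CPM per kb. Its range overlapped that of Hsp90ab1 in unstimulated and YFP- samples and not in YFP+ samples. This order depends on the exon lengths used, 2.999 kb for Hsp90ab1 and 4.301 kb for Hspa8. In CPM without length, Hspa8 had the higher mean in YFP- samples (3030 against 2394 CPM). Hsp90ab1 had it in unstimulated (1594 against 1553 CPM) and YFP+ samples (2561 against 1935 CPM). Per length, Hspe1 came next in unstimulated samples (75.4 ± 9.71 CPM per kb), above Hsp90aa1 (45.6 ± 7.59) and Hspd1 (44.5 ± 8.40), whose ranges overlapped each other. In the stimulated samples Hspd1 (169 ± 41.6 in YFP- and 200.8 ± 90.3 in YFP+) stood before Hspe1 (133 ± 19.0 and 199 ± 30.8), with overlapping ranges.

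Hsp90aa1 followed there, at 69.0 ± 8.15 and 80.1 ± 6.49 CPM per kb, and overlapped neither neighbour. The order of the J-domain genes per length was not the same in every group, and it depends on the exon lengths used. These were 8.63 kb for Dnaja1 and 3.20 kb for Dnajb1, over all annotated exons. In CPM without length, Dnaja1 had the higher mean in every group, with 106 against 77.3 CPM in unstimulated samples. Per length, Dnajb1 (24.1 ± 4.31 CPM per kb) lay above Dnaja1 (12.3 ± 2.32) in unstimulated samples with no overlap. In YFP- samples Dnaja1 (30.6 ± 4.45) and Dnajb1 (27.1 ± 2.42) overlapped, as they did in YFP+ samples (26.9 ± 8.82 and 21.2 ± 8.72). Hsph1 had rank 8 throughout, between 1.71 and 4.90 CPM per kb on average, and Hspa1b and Hspa1a were last, at 0.109 CPM per kb or less. Hsp90ab1 made up 49.1 ± 4.84% of the summed level per length of the 10 genes in unstimulated samples, 41.3 ± 1.97% in YFP- samples and 47.2 ± 5.76% in YFP+ samples. Together the 10 genes took 0.375 ± 0.079% of all reads in unstimulated libraries, 0.672 ± 0.084% in YFP- libraries and 0.597 ± 0.157% in YFP+ libraries.

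Similarity of profile was measured as the root mean square difference of log2 CPM over the 12 samples, each gene centred on its own mean. Among the 8 genes, the closest pair was Hsp90aa1 and Hsp90ab1 (0.10), followed by Hspe1 and Hsph1 (0.23). The pair farthest apart was Hspd1 and Dnajb1 (1.03). The distance was not scaled to each gene's own variation, so genes that vary little can come out close. The root mean square of a gene's own centred values was 0.39 for Hsp90aa1 and 0.35 for Hsp90ab1. It was 0.60 for Hspe1, 0.67 for Hsph1, 0.44 for Dnajb1 and 1.03 for Hspd1. Hspd1 and Hspe1, which share the region printed above, were 0.68 apart. In all 8100 genes searched, those nearest to each were Phf5a and Psmg2 for Hsp90aa1 (0.088 and 0.094), Snrpa and Rbm8a for Hsp90ab1 (0.081 and 0.086), Gypc and Clcn4 for Hspa8 (0.12 and 0.15), and Syncrip and Bysl for Hspd1 (0.17 and 0.18). Those of Hspe1 were Tmem126a and Cmss1 (0.12 and 0.13), those of Hsph1 were Iars and Mrpl47 (0.12 and 0.12), those of Dnaja1 were Slc52a2 and Pitpnb (0.11 and 0.12), and those of Dnajb1 were Ift52 and Katna1 (0.083 and 0.11). The samples share libraries and group differences, so these are descriptions.

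The 10 genes work with partners, for which 7 lists with 112 genes were used, 98 of them tested. In YFP- against unstimulated samples 52 were higher and 9 lower, with a median log2 difference of 0.70. In YFP+ against unstimulated samples 53 were higher and 11 lower, with a median of 0.53, or 43 and 10 without m4 of the unstimulated samples and 35 and 9 without m4 of all groups. Between YFP+ and YFP- 9 were higher and 5 lower, with a median of -0.063, against 28 higher and 2 lower with centring, where the median was 0.20. Without m3 of the YFP+ samples 14 were higher and 4 lower, with a median of 0.13, and without f2 or m2 of all groups 4 and 3 were higher and 1 and 2 lower. The percentages of all genes tested are those given above for each comparison. Genes named for YFP+ against YFP- alone were chosen after their values were seen.

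HSP90 cochaperones, which bring clients to HSP90 or tune its cycle, had 10 of 20 higher and 2 lower in YFP+ against unstimulated samples. In that comparison 27.5% of all genes tested were higher and 33.3% lower. The largest rises were those of Ppid, a cyclophilin (1.97, from 30.3 ± 8.06 to 118 ± 29.8 CPM), Chordc1 (1.74) and Nudcd2 (1.66), with limma adjusted p of 1.3e-05, 0.00023 and 4.7e-06. Fkbp8, an FK506-binding protein of the mitochondrial outer membrane, fell by 1.01 (398 ± 29.4 to 199.6 ± 37.3 CPM, limma adjusted p = 3.3e-05) and Nudcd3 by 0.46 (limma adjusted p = 0.034). In YFP- samples 10 were higher and Fkbp8 was lower, where 30.2% of all genes were higher and 20.9% lower. Cdc37, the kinase cochaperone, was called between YFP+ and YFP- in the deposited scaling (-0.35, limma adjusted p = 0.043). That call was lost with centring, TMM scaling or voom weights, and without any 1 of the 4 labels. With centring 4 other genes of the list were higher and none lower.

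Of the other J-domain proteins, 5 of 17 tested were higher and 1 lower in YFP+ against unstimulated samples. The higher count was near the share of all genes, of which 27.5% were higher and 33.3% lower. Without m3 of the YFP+ samples 8 were higher, as with centring, TMM scaling, quantile normalization or voom weights; without m4 of all groups 3 were. Dnajc2, which works at the ribosome, rose by 1.12, Dnaja2 by 1.01 and Dnajc24 by 0.997 (limma adjusted p = 4.1e-05, 0.01 and 1.5e-05). Dnajc9, a histone chaperone, fell by 1.92, from 121 ± 11.2 to 32.2 ± 4.63 CPM (limma adjusted p = 6.8e-08). Between YFP+ and YFP-, Dnajc24 was higher (0.50) and Dnajc9 (-0.64) and Dnajb14 (-0.78) were lower (limma adjusted p = 0.014, 0.0047 and 0.029). Among further HSP70 proteins and exchange factors, 6 of 12 were higher and 1 lower in YFP+ against unstimulated samples. This compares with 27.5% and 33.3% of all genes. Hspa4 rose by 1.35, Bag3 by 1.31 and Hspbp1 by 1.29, and Bag6 fell by 0.68 (limma adjusted p = 1.5e-06, 0.005, 2.2e-06 and 0.00088). Hspa4, a relative of Hsph1, was also higher in YFP+ than in YFP- (0.44, limma adjusted p = 0.034), and Hspa4l was lower (-0.81, limma adjusted p = 0.02). Without 1 label, the calls between YFP+ and YFP- were lost for Dnajc24 and Dnajb14 (f2, m2 or m4), Hspa4 (m2, m3 or m4) and Hspa4l (f2), and centring, TMM scaling, quantile normalization or voom weights each ended that of Dnajb14; without m3 of the YFP+ samples Hspa4 and Dnajb14 were not called.

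Mitochondrial chaperones and proteases had 9 of 15 higher and 4 lower in YFP+ against unstimulated samples. The shares of all genes there were 27.5% higher and 33.3% lower. Hspa9, the HSP70 of the mitochondrial matrix, rose by 2.48 (45.4 ± 8.71 to 271 ± 125 CPM, SD, n = 4, limma adjusted p = 1.5e-05) and by 2.24 in YFP- samples (limma adjusted p = 7.2e-05). Its J protein Dnaja3 rose by 1.86 and the protease subunit Clpp by 1.41 (limma adjusted p = 0.00022 and 4e-07). The largest falls were those of Dnajc15 (-0.92) and Spg7 (-0.79), a subunit of an inner membrane protease (limma adjusted p = 4.2e-05 and 0.00018). Clpp was higher (0.46) and Hscb, an iron-sulfur cluster J protein, lower (-0.43) in YFP+ than in YFP- samples (limma adjusted p = 0.016 and 0.019). With centring, TMM scaling or voom weights 4 genes of the list were higher and none lower, and with quantile normalization 2 and none. The call of Hscb was also lost without any 1 of the labels, and that of Clpp without f2 or m2.

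TRiC is the ring chaperonin of the cytosol that folds actin and tubulin. With its partner prefoldin it had 11 of 14 genes higher and none lower in YFP+ against unstimulated samples. Among all genes 27.5% were higher and 33.3% lower there. Without m4 of the unstimulated samples 7 were higher, and without m4 of all groups 5. Cct6a rose by 2.09 (60.5 ± 16.1 to 302 ± 196 CPM), Pfdn4 by 1.60 and Cct3 by 1.44 (limma adjusted p = 0.00076, 1.6e-07 and 0.0021). Pfdn4 alone was called between YFP+ and YFP- (0.47, limma adjusted p = 0.016), and not without f2, m2 or m3 of all groups. With centring 5 genes did, all higher, and the list's median turned from -0.13 to 0.13.

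**Figure D4:**
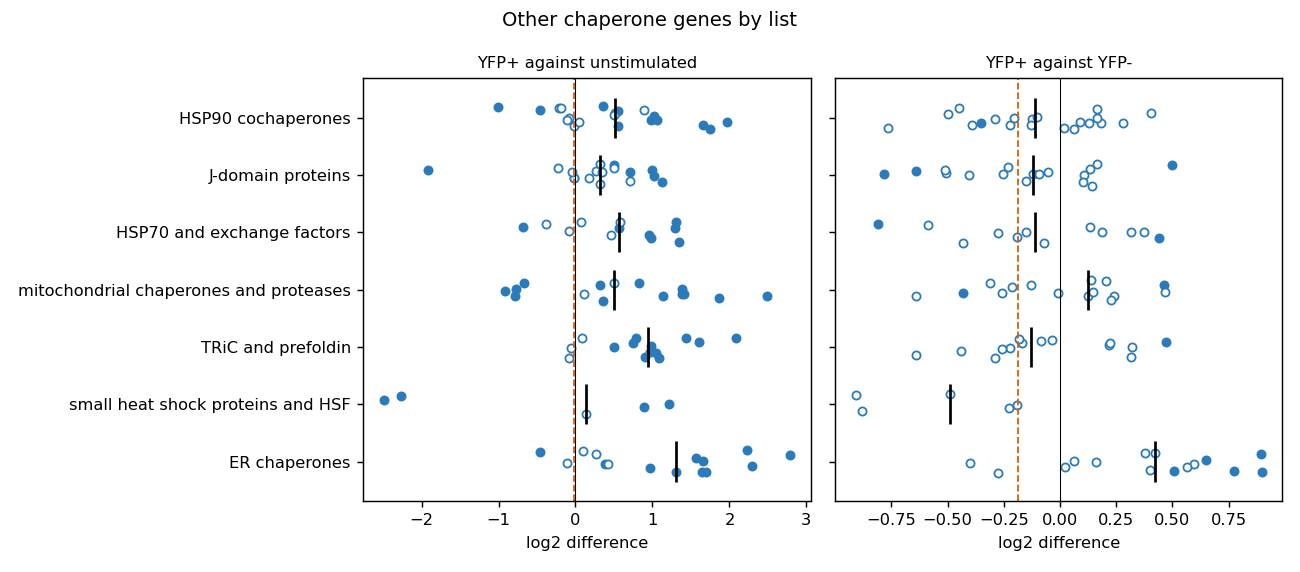
Log2 difference (x axis) of each tested gene of the 7 lists (rows) in YFP+ against unstimulated and in YFP+ against YFP- samples; filled points have an adjusted p under 0.05, black bars are list medians and the dashed line is the median of all genes tested. The medians of TRiC and prefoldin (0.94) and of ER chaperones (1.30) lie farthest right in the left panel, and the right panel spans a smaller range.

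Chaperones of the endoplasmic reticulum had 10 of 15 genes higher and 1 lower in YFP+ against unstimulated samples. Again, 27.5% of all genes were higher and 33.3% lower there. Hspa5, which encodes BiP, rose by 2.79 (265 ± 68.6 to 2066 ± 1264 CPM, limma adjusted p = 4.8e-05), Hyou1 by 2.29 and Dnajb9 by 2.23 (limma adjusted p = 5.2e-08 and 1.1e-07). Sil1, the exchange factor of BiP, fell by 0.47 (limma adjusted p = 0.01). Between YFP+ and YFP- samples, 5 of the 15 were higher and none lower, where 3.28% of all genes were higher and 18.5% lower. The 5 were Hyou1 (0.89), Sdf2l1 (0.90), Dnajb9 (0.77), Pdia6 (0.65) and Hsp90b1 (0.50), with limma adjusted p of at most 0.038. Against unstimulated samples, Hyou1, Dnajb9 and Pdia6 were called higher in both stimulated groups. Sdf2l1 was lower in YFP- (-0.805, limma adjusted p = 0.00069) and not called in YFP+ (0.094, limma adjusted p = 0.62). Hsp90b1 was called in neither (-0.24 and 0.27, limma adjusted p = 0.18 and 0.13). With centring 10 were higher, without m3 of the YFP+ samples 8, and without f2 or m2 of all groups 3. Leaving out 1 label of all groups ended the calls of Pdia6 (f2, m2 or m4) and Hsp90b1 (f2, m2 or m3).

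Of the small heat shock proteins and heat shock factors, 5 of 15 passed the filter. Hsf1, the main heat shock factor, rose from 18.4 ± 2.13 CPM to 40.2 ± 6.68 CPM in YFP- (1.12, limma adjusted p = 0.0008) and 35.3 ± 10.1 CPM in YFP+ samples (0.89, limma adjusted p = 0.0027). Named after their values were seen, Hsf2 rose by 1.22 in YFP+, and Hspb6 and Hsf4, at low levels, changed by -2.26 and -2.49 (limma adjusted p = 0.00054, 2.5e-05 and 3.5e-05). Hspb1, the classical small heat shock protein, had group means of 0.0848 to 0.111 CPM. None of the 5 was called between YFP+ and YFP- by limma.

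**Figure D5:**
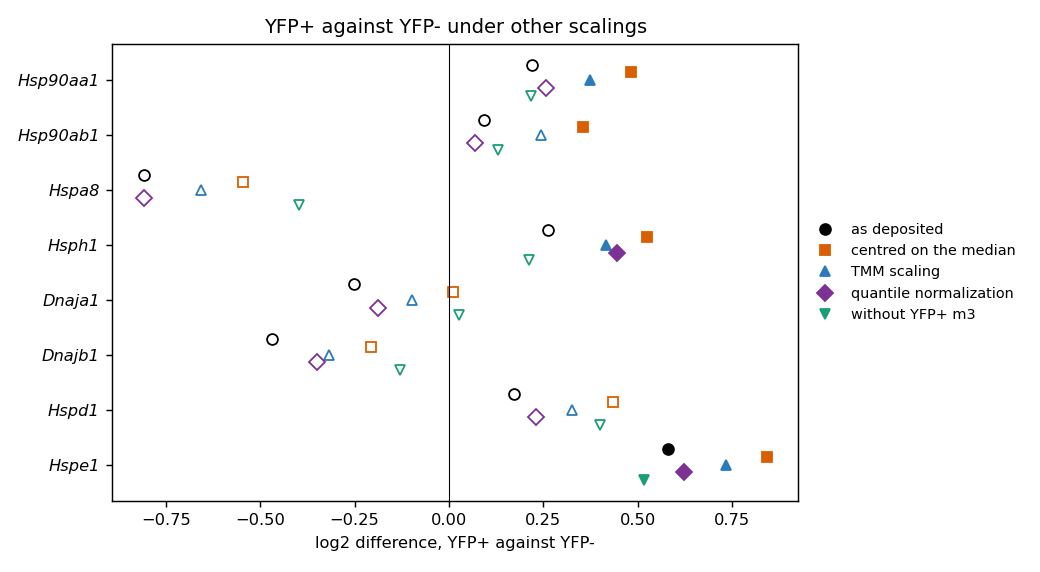
Log2 difference of YFP+ from YFP- samples (x axis) for the 8 genes under the deposited scaling, 3 other scalings, and without m3 of the YFP+ samples; filled points have a limma adjusted p under 0.05. Hspe1 is filled in all 5 settings shown (0.52 to 0.84), Hsph1 in 3, and Hspa8 and Dnajb1 in none.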

How the data were processed

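RNA-seq of 12 samples was used. Per the file headers, the values the authors deposited are moderated log2 CPM, in 1 table. Of 55774 lines, 287 repeated an identifier and were dropped; 0 per-sample columns belonged to no sample. The submitters' processing notes name bcl2fastq, STAR 2.7.9a, featureCounts 2.0.3 of Subread and GRCm38; the annotation, counting settings and prior are not given in the sources used here. Per the labels' protocols, cDNA came from 10 ng of total RNA (SMARTer Ultra Low kit) and reads were paired, of 150 bases. Whole reads recovered from the values followed the deposited scale to within 5.15e-14, for 100.0% of values within 0.01 reads, and gave the CPM printed. Floors cover counting error only.

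The 12364 genes whose log2 CPM exceeded 0 in 4 or more samples were fitted on all 12 samples in limma 3.58.1 (R 4.3.3) with an intensity trend, 1 coefficient per group, with Benjamini-Hochberg adjustment over all genes and a threshold of 0.05. Fold changes are on the moderated log2 scale. All 10 members were named; from each list, up to 3 rises and 2 falls in YFP+ against unstimulated samples among called genes of mean log2 CPM of at least 2, and Hsf1, Hspa9 and Hspa5. Members and lists were chosen with earlier results of these data known. Exon lengths and positions are those of GENCODE M21 (GRCm38), and promoters those of RefSeq (GRCm38.p6). Fits were tested on simulated data. Alternatives were a replicate block, other filters, pseudocounts, scalings, thresholds and left-out labels. Leaving out m3 of the YFP+ samples or m4 of the unstimulated samples, and the permutation test of Hspa1a plus Hspa1b, were added after seeing the data. Other steps ran in Python 3.11.15 with pandas 2.3.3, scipy 1.17.1, numpy 2.4.6 and, for the plots, matplotlib 3.10.9.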

Additional observations from a re-analysis of the deposited data

Results flagged for a closer look

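Of 48 sets of 4 values examined, 5 held a sample far from the other 3, where the gap to the nearest sample, as a share of the range, exceeded Dixon's 95% critical value; chance alone gives about 1 in 20, or 2.4 sets. For Hspa1a among unstimulated samples the share was 0.985, with m3 at a log2 CPM of -4.74 (1 read) and the others at -2.17 to -2.13. For Hspd1 among YFP- samples it was 0.862, with m3 at 8.15 and the others at 8.90 to 9.01. For Hsph1 in the same group it was 0.906, with m3 at 4.65 and the others at 4.95 to 4.98. For Dnaja1 among unstimulated samples it was 0.865, with m4 at 6.26 and the others at 6.80 to 6.89. For the summed reads of the 10 genes in unstimulated libraries it was 0.888, with m4 at 0.257% of reads and the others at 0.406 to 0.425%. The YFP- sample m3 and the unstimulated sample m4 also held the highest ribosomal RNA-like shares of their groups, 30.3% and 35.3%, and the part of these shares in the values was not tested.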

How the results depend on the processing

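Across 16 alternatives, 360 of 384 values of the 8 tested genes kept their direction and their side of the threshold, and 13 of 24 gene-by-comparison results did so throughout. The counts of called genes moved by over 1.5 times with an absolute log2 change of at least 1 required. They were then 3239, 4547 and 1256 genes in YFP- against unstimulated, YFP+ against unstimulated and YFP+ against YFP-. The third count also did so with no filter (1583), an adjusted p under 0.01 (1466), and without label m2 (1526) or m4 (1583). Leaving out samples gave 4532 to 6780, 6232 to 7791 and 1526 to 2603 genes. Of the chaperones, 4 passed a log2 change of 1 in YFP- against unstimulated samples, and leaving out samples gave 6 to 7, 6 to 6 and 0 to 1 calls in the 3 comparisons. The single call between YFP+ and YFP- became 4 with centring, 3 with TMM scaling or voom weights, 2 with quantile normalization, and 0 with no filter, an adjusted p under 0.01 or a log2 change of 1 (in limma, 2 of the 8 had an unadjusted p under 0.05 in the deposited scaling). Genes called higher also rose in number among all 12364 tested, from 405 in the deposited scaling to 1505 with centring. They were 1016 with TMM scaling, 1144 with voom weights and 1163 with quantile normalization. Signs turned for Dnajb1 in YFP- against unstimulated samples with quantile normalization (-0.057) and for Dnaja1 in YFP+ against YFP- with centring (0.012). Left-out samples moved Hspa8 in YFP+ against unstimulated samples from -0.063 to 0.67, Dnajb1 there from -0.42 to 0.076, Hspd1 in YFP+ against YFP- from -0.026 to 0.40 and Dnaja1 there from -0.35 to 0.026; none of these was called. With no filter, Hspa8 and Hsp90ab1 lost their calls in YFP- against unstimulated samples (adjusted p = 0.27 and 0.093); without label m2 or m4 Hspa8 did so too (adjusted p = 0.066 and 0.23). The cause was not tested.

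Per exon length, the share of Hsp90aa1 in the HSP90 pair was 7.87%, 7.96% and 8.65% in unstimulated, YFP- and YFP+ samples, the share of Hspa1a plus Hspa1b 0.0380% and 0.0292% in the first 2 groups, and the ratio of Hspe1 to Hspd1 1.72, 0.825 and 1.22. Without division by length, Hsp90ab1 made up 43.3% and 35.7% of the summed level in unstimulated and YFP- samples. With the replicate label as a block, limma called 6682, 7774 and 3098 genes and 7, 6 and 1 chaperones, and no chaperone changed its call. Deviations of samples with the same label correlated by 0.027, 0.14 and 0.24 on average in the 3 comparisons. They were over 0.1 for 1, 2 and 3 of the 4 labels, and highest with their own label for 1, 2 and 3. The main fit did not take the labels as pairs in any comparison, although these correlations were highest for YFP+ against YFP-. Depth limits Hspa1a and Hspa1b, which had at most 24 reads in a library.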
